A study of Mus musculus with 6 samples.

Results

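The cells described here are the inflammatory Ly6c2 monocyte-derived cells of mouse kidney allografts, a part of the myeloid cells chosen by their transcripts. A cell was a member when its barcode held at least 5 unique molecular identifiers (UMIs) of Lyz2, the myeloid lysozyme gene, and at least 2 of the 5 genes Ly6c2, Chil3, Vcan, F13a1, and Fn1 with at least 3 UMIs in sum. It also had to show fewer than 2 of the patrolling monocyte genes Ace, Ear2, Adgre4, and Treml4, and no UMI of Cd3e, Cd79a, or Top2a, which mark T cells, B cells, and dividing cells. In the 4 transplanted kidneys, 891 of 36517 kept barcodes met this rule, which is 2.44%, and the whole series held 49797 kept barcodes. Because the rule read the counts themselves, the levels of these 13 genes in the members are given as a description only.

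BALB/c kidneys from mice of 6 to 7 weeks were transplanted into B6 males whose own kidneys had been removed, and the grafts were taken on day 15. In the rejecting group (n = 2 kidneys) the recipients received no tolerizing cells. In the tolerized group (n = 2 kidneys) they also received BALB/c splenocytes treated with the cross-linker ethylenecarbodiimide, intravenously on day +1 and on a day that the labels write as day 7 and the methods place before transplantation. Untransplanted kidneys of B6 males of 10 to 12 weeks (n = 2) served as background only, because strain and age differ from those of the grafts. Their counts were also made with another gene list than those of the grafts. No sort is described, each kidney gave 1 library, and all tests below measure the spread between 2 libraries per group. The study ran the kidneys of each group in 2 experiments, and the labels do not say which kidney belonged to which, so the replicate number entered as a block only as an alternative.

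Ly6C-high classical monocytes leave the bone marrow through the chemokine receptor CCR2 and enter inflamed tissue, where they can lose Ly6C and become macrophages or antigen-presenting cells. In tissue they respond to interferon gamma from T cells and NK cells and to type I interferon. Their products include chemokines that draw further T cells and monocytes, cytokines such as IL-1β, and the guanylate-binding proteins that act against intracellular microbes.

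The number of these cells did not separate the groups. There were 260 and 303 members in rejecting kidneys 1 and 2, against 286 and 42 in tolerized kidneys 1 and 2. As a share of kept barcodes, rejecting kidney 1 had 2.21% (95% exact binomial interval 1.96% to 2.50%) and rejecting kidney 2 had 3.75% (3.35% to 4.19%). Tolerized kidney 1 had 2.91% (2.59% to 3.26%) and tolerized kidney 2 had 0.610% (0.440% to 0.824%). Tolerized kidney 1 lay between the rejecting kidneys, whereas tolerized kidney 2 was far below the other grafts. The means were 2.98% ± 1.09 and 1.76% ± 1.63 (SD, n = 2 each), and an exact two-sided permutation test gave p = 0.667, where the smallest p that 2 against 2 kidneys allow is 0.333. For the number of cells the means were 281.5 ± 30.4 and 164 ± 173, and the exact permutation p was the same, 0.667. Without tolerized kidney 2, the difference in number was 4.5 cells and no longer favored the rejecting kidneys. The untransplanted kidneys held 21 and 24 such cells, or 0.291% and 0.396% of kept barcodes. The intervals cover counting error only, and libraries of transplanted kidneys shared 18 to 35 barcode sequences per pair.

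**Figure D1:**
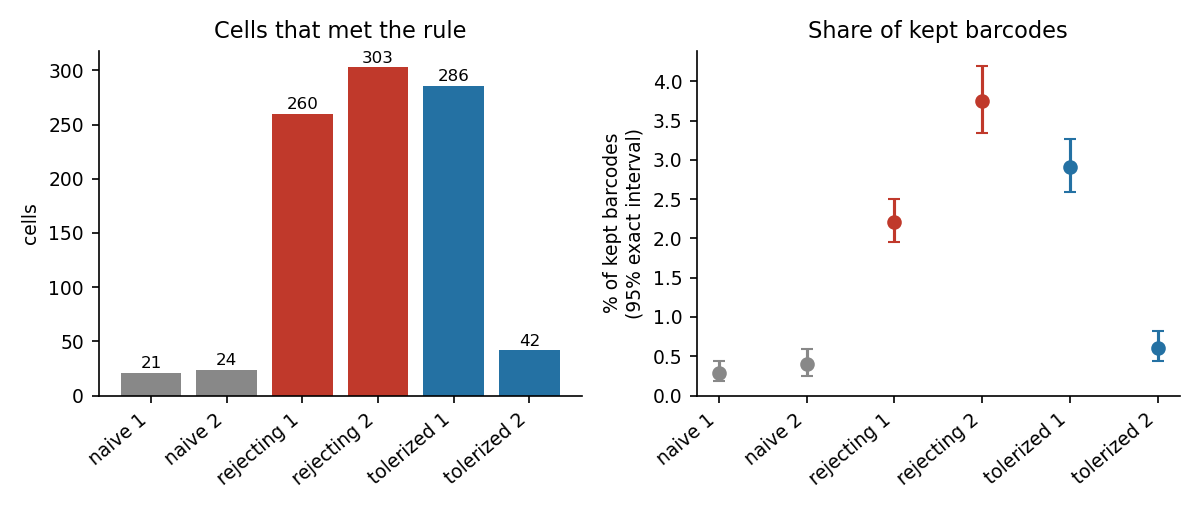
Left, cells that met the membership rule in each kidney, as bars from 0. Right, the same cells as a percent of kept barcodes with 95% exact binomial intervals, which cover counting error only. The first tolerized kidney sits at 2.91%, between the rejecting kidneys at 2.21% and 3.75%, and the second at 0.610%.

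The label was checked against Ccr2, the one supplied marker that the rule did not use, and against other genes of classical monocytes. Ccr2, the receptor for the chemokine CCL2, had a UMI in 229 of 260 and 284 of 303 rejecting members, against 269 of 286 and 40 of 42 tolerized members. Plac8, another gene of classical monocytes, was seen in 236, 288, 276, and 39 members, where series of 4 values run from rejecting kidney 1 to tolerized kidney 2. With cells thinned to 2000 UMIs, Ccr2 was found in 71.7% to 85.0% of members, in 24.0% to 41.9% of non-classical monocytes, and in 30.7% to 39.6% of C1q-high macrophages. It was also found in 6.69% to 10.6% of T cells, and the source of that share was not tested. Ly6c2 in thinned cells was found in 66.1% to 87.5% of members, against 8.49% to 12.7% of T cells, a description since the rule used it. Vcan, the third supplied marker, was sparse, with a UMI in 78, 103, 106, and 7 members. The label therefore rests on Ly6c2, Ccr2, and Plac8 more than on Vcan.

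Among the genes of the rule, Ly6c2 was detected in 250, 276, 265, and 39 members, and its level was 1180 and 1044 CPM in rejecting against 779 and 1260 CPM in tolerized members. Here and below, CPM is the summed UMI count of all members of a kidney as depth-scaled counts per unit of the library total (the usual CPM), after TMM normalization, which removes differences in composition between libraries. Chil3, a chitinase-like protein of inflammatory monocytes, ranged from 605 to 1657 CPM, with both extremes in rejecting kidneys. F13a1, the coagulation factor XIII A chain, ranged from 225 to 296 CPM and Fn1, fibronectin, from 365 to 444 CPM. Exactly 2 of the 5 genes were seen in 116, 108, 109, and 13 members, and all 5 in 23, 40, 61, and 5. At the lower edge of the rule, 16, 20, 27, and 1 members had a sum of just 3 UMIs, while 127, 145, 167, and 48 cells that met the other criteria stayed outside with a smaller sum or with 1 gene. No more than 1 member of a graft had 5 or 6 UMIs of Lyz2, and the median was 142, 155, 239, and 255.5 UMIs, so the Lyz2 limit touched few cells.

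The members' libraries differed in depth. The summed UMIs were 1722521 and 1950722 (rejecting) against 3110027 and 424144 (tolerized), and a member held a median of 6359, 5686, 9310, and 9145.5 UMIs, so that tolerized members were deeper. RNA of other cells was also present. In all 4 grafts 8 of 8 proximal tubule genes were detected, and this list summed to 2174 and 1763 raw CPM (not TMM-normalized) in rejecting and 3802 and 5970 raw CPM in tolerized members. The list of 8 T cell genes, of which Cd3e was at 0 by the rule, summed to 172 and 56.9 raw CPM in rejecting and to 10.3 and 7.07 raw CPM in tolerized members, and the list of 5 NK cell genes to 87.1 and 9.23 against 0.643 and 2.36 raw CPM. The neutrophil list of 9 genes gave 562 and 1502 raw CPM in rejecting and 114 and 179 raw CPM in tolerized members. Cells with at least 3 UMIs of neutrophil granule genes numbered 3, 1, 0, and 0. Cells with at least 3 UMIs of T or NK cell genes numbered 25, 5, 0, and 0, and cells with at least 1% of UMIs from tubule genes 9, 5, 17, and 2. The comparison was repeated without these cells and without cells carrying B cell or erythroid genes, which left 222, 292, 268, and 40 members. Fewer cells of a kind and less RNA per cell cannot be told apart in the sums.

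Tolerized and rejecting members were compared gene by gene with edgeR's quasi-likelihood test on the summed counts, adjusted by the Benjamini-Hochberg method over 8727 genes to a false discovery rate (FDR) of 0.05. It called 4 genes, 0.0458% of those tested, of which Mmp12 was higher (0.0115%) and Ngp, S100a9, and Ltf were lower (0.0344%) in tolerized kidneys. Before adjustment, 505 genes (5.79%) had a p under 0.05, of which those higher made up 3.24% and those lower 2.54% of genes tested. The median log2 fold change over all genes was -0.005. Beside these calls, DESeq2 called 18 genes, and edgeR with the replicate number as a block called 31, among them the 4 given here. Part of the added calls were marker genes of other cells, such as Kap (proximal tubule) and Cd3g (T cells) with DESeq2. With the block they included Cd3g, Trbc1, and Gzma of T and NK cells.

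The UMIs of Ngp and Ltf came from 4 rejecting cells, and 1 of 2 rejecting kidneys gave all its S100a9 from 1 cell. Ngp, Ltf, and S100a9 encode proteins of neutrophil granules and cytosol, and Camp, which had the next smallest p among lower genes with an FDR of 0.148, encodes the granule peptide cathelicidin. With the replicate block, Camp also passed (adjusted p = 1.2e-05). Ngp gave 246 UMIs in 3 cells of rejecting kidney 1, 320 UMIs in 1 cell of rejecting kidney 2, and no UMI in either tolerized kidney. Over the group this was at least 182-fold lower in tolerized members, taking 3 counts over both tolerized kidneys as the floor (edgeR, adjusted p = 0.00164). Ltf, lactoferrin, gave 44 UMIs in 3 cells and 56 UMIs in 1 cell of the rejecting kidneys and none in the tolerized kidneys, at least 32.1-fold lower (edgeR, adjusted p = 0.0386). S100a9, a subunit of calprotectin, gave 322 UMIs in 6 cells and 1204 UMIs in 1 cell of the rejecting kidneys, against 5 UMIs in 5 cells and 1 UMI in 1 cell of the tolerized kidneys (edgeR, adjusted p = 0.0219). Without the granule-positive cells, edgeR called 0 genes, with 499 at an unadjusted p under 0.05. Without all cells carrying other cells' markers it also called 0 of 8216 genes, with 359 (4.37%) at an unadjusted p under 0.05.

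Mmp12, the macrophage elastase, was the one gene called higher. It gave no UMI in rejecting kidney 1, 5 UMIs in 3 cells of rejecting kidney 2, 274 UMIs in 8 cells of tolerized kidney 1, and 102 UMIs in 2 cells of tolerized kidney 2. The levels were 0, 2.51, 89.0, and 252 CPM, a log2 fold change of 6.83 ± 0.80 (SE; edgeR, adjusted p = 0.0386). Its highest cell held 62.4% and 84.3% of the UMIs in the tolerized kidneys. With the highest cell of every gene left out it remained the only call (log2 fold change 5.94, adjusted p = 0.0246), whereas without the cells carrying other cells' markers it had an adjusted p of 0.135. Mmp12 was also not among the calls without C1q-positive cells, under the stricter membership rule, or with thinned cells. In C1q-high macrophages of the same kidneys, Mmp12 stood at 8.69 and 21.8 raw CPM in rejecting and 90.0 and 87.3 raw CPM in tolerized kidneys, and in non-classical monocytes at 41.5 and 31.8 against 42.1 and 0.570 raw CPM. Mmp12 lies on chromosome 9 (GRCm38, 7344381 to 7369499) and Ngp on the same chromosome (110419747 to 110423012).

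**Figure D2:**
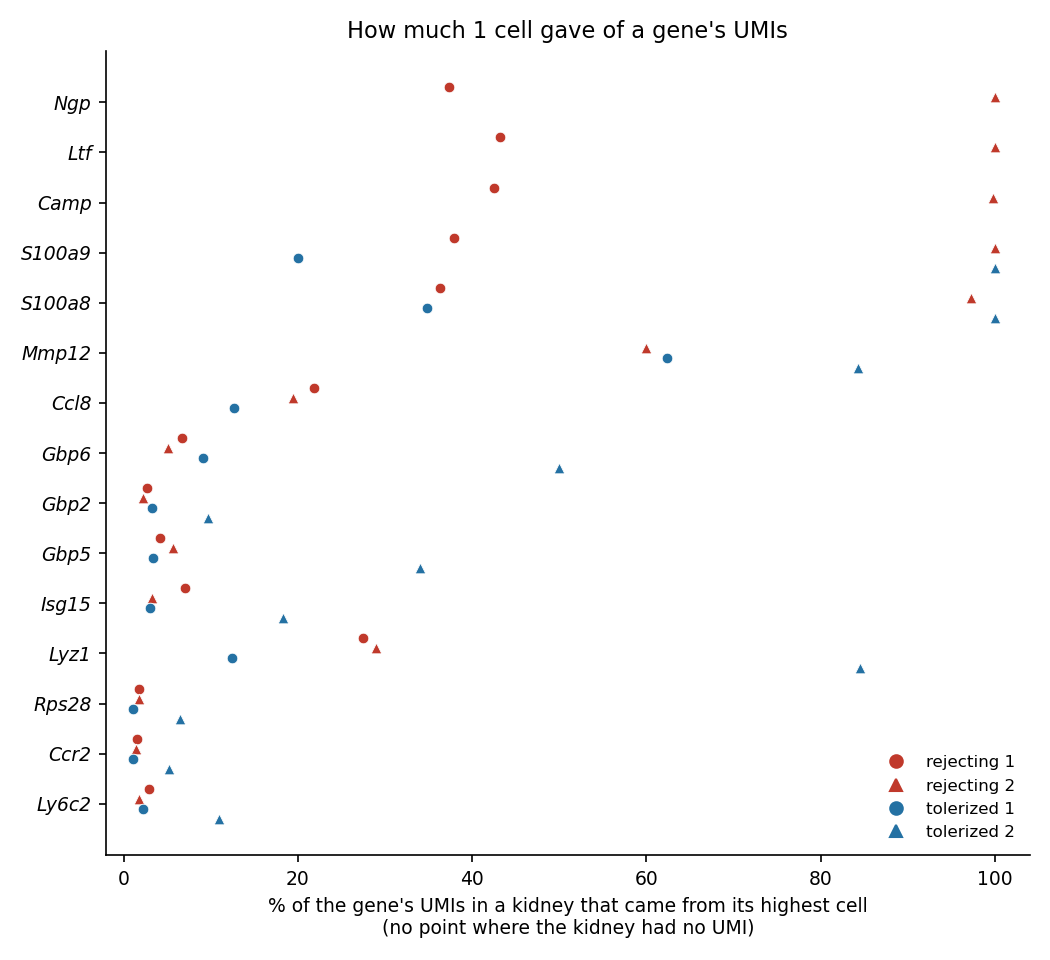
Percent of a gene's UMIs in a kidney that came from its single highest cell, with 1 symbol per kidney, set apart vertically within each gene. For Ngp and Ltf all UMIs of rejecting kidney 2 came from 1 cell and the tolerized kidneys have no point, whereas for Gbp2 and Rps28 the highest cell gave under 10% in every kidney.

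The genes with the next smallest p among higher genes did not pass the FDR. Lyz1, a lysozyme gene expressed by macrophages, stood at 290.1 and 252 CPM in rejecting and 909 and 767 CPM in tolerized members (log2 fold change 1.63 ± 0.23, adjusted p = 0.126). Its UMIs came from 29, 32, 62, and 6 cells, and 1 cell held 84.6% of them in tolerized kidney 2. Lyz1 is a near-identical copy of Lyz2, so its counts depend on how shared reads were assigned, and its direction turned when C1q-positive cells were left out (-0.75). Fcrls, an Fc receptor-like gene of tissue macrophages, gave 0, 1, 52, and 5 UMIs (adjusted p = 0.148). The histone gene Hist1h2bc stood at 29.7 and 32.1 CPM against 77.6 and 98.6 CPM, with no overlap between the groups (log2 fold change 1.47 ± 0.26, adjusted p = 0.242), and Rpl41 is described with the ribosomal genes. With the replicate block, Lyz1 (adjusted p = 0.0158), Fcrls (0.0456), and Hist1h2bc (0.0405) passed the edgeR test.

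Interferon-induced genes were the group with the most members at lower levels in tolerized kidneys. The gene lists here and below were chosen with earlier results of these data known, so their direction is not independent evidence. Of the 24 genes tested from a list of 27 interferon gamma response genes, 16 were lower in both tolerized kidneys than in either rejecting kidney and 0 were higher in both, beside 17.6% and 17.4% of all genes tested, shares that hold for every such count below. The list's median log2 fold change was -0.55, against -0.005 over all genes. Of 30 type I interferon-stimulated genes tested, 18 were lower in both tolerized kidneys and 0 higher, with a median of -0.45. No gene of either list passed the FDR in edgeR, and 8 of each list had an unadjusted p under 0.05, all lower in tolerized kidneys, beside 2.54% of all genes. DESeq2 called 2 of them, Gbp2 and Gbp6, each with an adjusted p of 0.0489. Without the cells carrying other cells' markers, the counts were again 16 of 24 and 18 of 30, beside 16.9% of genes lower in both tolerized kidneys, and the medians were -0.54 and -0.43. With cells thinned to 2000 UMIs the medians were -0.45 and -0.21. The rule was applied again to the thinned counts, which left 153 and 227 rejecting and 217 and 37 tolerized members. Depth and membership thus changed together, and their parts in the shift cannot be told apart.

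Among the interferon gamma response genes of highest level, Gbp2, a guanylate-binding protein, stood at 1110.5 and 1069 CPM in rejecting against 599.7 and 434 CPM in tolerized members. The groups did not overlap (log2 fold change -1.07 ± 0.24, edgeR adjusted p = 0.377). It was seen in 220, 274, 231, and 31 members, so that many cells contributed in each kidney. Cxcl10, a chemokine for CXCR3-bearing T cells, stood at 1880.1 and 1908 CPM against 1111 and 1369 CPM, again without overlap (log2 fold change -0.61 ± 0.22, adjusted p = 0.778). Cxcl9, which binds the same receptor as Cxcl10, differed from Gbp2 and Cxcl10, since tolerized kidney 1 at 2220 CPM lay above rejecting kidney 2 at 1989 CPM. Rejecting kidney 1 had the highest Cxcl9 at 3432 CPM and tolerized kidney 2 the lowest at 1267 CPM. With thinned cells, 13.8%, 4.66%, 2.13%, and 1.67% of T cells of the 4 grafts also held a Cxcl9 UMI. The shares were 32.5% to 55.2% of members and 70% to 89.4% of C1q-high macrophages.

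Gbp6 had the fifth smallest p among genes that were lower, and its level was 61.2 and 39.6 CPM in rejecting and 10.7 and 9.86 CPM in tolerized members. This is a log2 fold change of -2.25 ± 0.35 (edgeR adjusted p = 0.148, and 0.00705 with the replicate block), and Gbp6 was detected in 59, 57, 27, and 2 members. Its near-identical neighbors in the same family can share its reads. Other genes of the 2 lists were singled out after their values were seen. Gbp5 stood at 277 and 221 CPM against 114 and 123 CPM (log2 fold change -1.08 ± 0.23, adjusted p = 0.348). Oas1a, which makes the messenger that switches on RNase L, stood at 111 and 94.3 CPM against 45.5 and 49.3 CPM. Ifit2, an inhibitor of viral translation, stood at 132 and 101 CPM against 55.5 and 37.0 CPM. For each of these genes both tolerized kidneys lay below both rejecting kidneys.

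Of the 4 type I interferon-stimulated genes of highest level, Isg15, a ubiquitin-like modifier, stood at 636 and 646 CPM in rejecting and 351 and 338 CPM in tolerized members (log2 fold change -0.89 ± 0.21, edgeR adjusted p = 0.439). The replicates of a group lay closer together than the groups did. Zbp1, a sensor of Z-form nucleic acid, stood at 439.9 and 432 CPM against 315 and 375 CPM. Ifi204 and Ifi27l2a overlapped between the groups, with Ifi27l2a at 2174 and 1310.0 CPM against 1508 and 2182 CPM. Untransplanted kidneys had Ifi27l2a at 1981 and 2724 raw CPM in their few members, but Gbp2 at only 14.9 and 31.3 raw CPM and Gbp5 without a UMI.

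**Figure D3:**
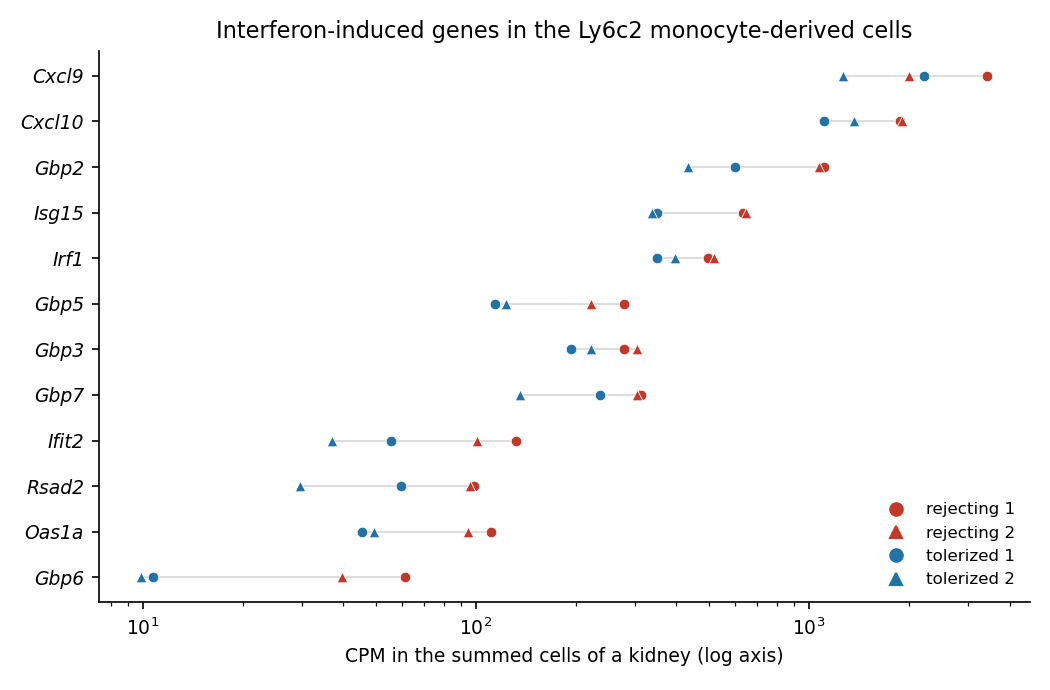
CPM of 12 interferon-induced genes in the summed members of each kidney, on a log axis, with 1 symbol per kidney. For 11 of the 12 genes both tolerized kidneys lie to the left of both rejecting kidneys, and Cxcl9 overlaps. The genes beyond the highest-level members of the lists were chosen after their values were seen.

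The promoters of several of these genes are shown because interferon-induced transcription factors bind a known motif, the interferon-stimulated response element, searched here as GAAANNGAAA on both strands, with overlapping matches allowed. In RefSeq promoters of GRCm38.p6, from 250 bases before to 50 after the gene start, 1079 of 27025 genes (3.99%) held it. Of the 54 genes of both interferon lists that were tested, 41 had a promoter entry and 24 of these (58.5%) held the motif. Of the 34 that were lower in both tolerized kidneys, 24 had an entry and 15 (62.5%) held it. Of the 8 ribosomal genes described below, 7 had an entry and 1 held it. The following stretches of 60 bases lie before the gene start and are written 5′ to 3′ on the strand of the gene, with the motif in capitals. Gbp2 is at chr3:142620579-142620638 (+), Isg15 at chr4:156200850-156200909 (-), Cxcl10 at chr5:92349068-92349127 (-), Gbp5 at chr3:142496744-142496803 (+), and Oas1a at chr5:120907526-120907585 (-).
Gbp2: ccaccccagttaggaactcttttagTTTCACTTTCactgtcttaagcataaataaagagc
Isg15: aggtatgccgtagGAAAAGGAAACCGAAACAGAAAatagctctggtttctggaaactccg
Cxcl10: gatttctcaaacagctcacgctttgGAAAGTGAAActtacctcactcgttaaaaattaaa
Gbp5: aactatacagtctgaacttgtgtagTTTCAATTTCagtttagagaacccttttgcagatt
Oas1a: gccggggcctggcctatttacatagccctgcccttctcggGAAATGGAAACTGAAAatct
In Gbp2 and Gbp5 the motif is on the opposite strand, and in Isg15 and Oas1a several copies overlap. A match of letters does not show that a factor was bound in these cells.

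Genes of the NF-κB feedback loop, which NF-κB induces and many of which then restrain it, were lower in the same way. Of 15 tested, 9 were lower in both tolerized kidneys, beside 17.6% of all genes, and 0 higher, with a median log2 fold change of -0.57, and none passed the FDR. Nfkbia, which encodes the inhibitor IκBα, stood at 444 and 496 CPM in rejecting and 312 and 256 CPM in tolerized members (log2 fold change -0.72 ± 0.23, edgeR adjusted p = 0.680). Sod2, the mitochondrial superoxide dismutase, stood at 437 and 462 CPM against 339.9 and 340.3 CPM. Tnfaip2 and Ier3 overlapped between the groups. The median of the list was -0.26 with cells thinned to 2000 UMIs, -0.34 under a stricter membership rule, and -0.36 without rejecting kidney 2.

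The chemokine list, which also holds Cxcl9 and Cxcl10, was mixed. Of 15 tested, 5 were lower and 2 higher in both tolerized kidneys, with a median log2 fold change of -0.61. It was -1.81 without tolerized kidney 1, -0.23 without tolerized kidney 2, and -0.30 without rejecting kidney 1. Ccl6, a chemokine of myeloid cells, stood at 438 and 596 CPM in rejecting and 647 and 1095 CPM in tolerized members (log2 fold change 0.74 ± 0.30, edgeR adjusted p = 0.811). Ccl8, a monocyte and T cell attractant, stood at 1151 and 795 CPM in rejecting kidneys, 1977 CPM in tolerized kidney 1, and had no UMI in tolerized kidney 2, which allows up to 7.07 raw CPM. Ccl2, the ligand of CCR2, and Ccl4, another chemokine, were singled out after their values were seen. Ccl2 stood at 91.5 and 159 CPM against 49.0 and 64.1 CPM and Ccl4 at 265 and 290.0 CPM against 163 and 78.9 CPM, with adjusted p of 0.606 for both. Il1b, encoding the inflammasome product IL-1β, overlapped between the groups at 1110 and 2356 CPM against 1393 and 903 CPM. Of 18 cytokine and receptor genes, 7 were lower and 1 was higher in both tolerized kidneys, beside 17.6% and 17.4% of all genes, with a median of -0.46 that was -0.25 without the cells carrying other cells' markers.

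Glycolysis and hypoxia genes were also at lower levels. Of 22 tested, 13 were lower in both tolerized kidneys, beside 17.6% of all genes, and 0 higher, with a median log2 fold change of -0.31 and no gene past the FDR. Without rejecting kidney 2 the median was -0.17. The 4 of highest level were close to even, with Gapdh and Pkm overlapping and Aldoa and Eno1 at -0.22 ± 0.22 and -0.23 ± 0.22. Hif1a, the oxygen-regulated transcription factor, and Slc2a1, the glucose transporter GLUT1, were chosen after their values were seen. Hif1a stood at 144 and 246 CPM against 107 and 93.7 CPM and Slc2a1 at 41.4 and 74.8 CPM against 29.2 and 27.1 CPM. The arginase gene Arg1, likewise chosen afterward, was a feature of 1 rejecting kidney, with a UMI in 1, 26, 2, and 0 members and 1, 528, 6, and 0 UMIs.

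Antigen presentation did not move as a block. All 13 tested genes of MHC class I and peptide loading had a negative log2 fold change, 7 of them without overlap, and the median was -0.30. The most abundant, H2-D1, B2m, and H2-K1, had log2 fold changes of -0.01, -0.03, and -0.05, and their kidneys overlapped. Psmb8, a subunit of the immunoproteasome, stood at 1355 and 1488 CPM in rejecting and 1097 and 1260.1 CPM in tolerized members. MHC class II genes gave a median of 0.04 over 10 genes, 1 of them higher in both tolerized kidneys. Cd74, the invariant chain, stood at 10628 and 10987 CPM against 14370 and 8813 CPM, so that the tolerized kidneys enclosed the rejecting kidneys, and H2-Ab1, H2-Aa, and H2-Eb1 did the same. Of 12 costimulatory genes and PD-1 ligands, 4 were lower and 1 was higher in both tolerized kidneys. Cd86, a ligand of CD28, stood at 200.4 and 244 CPM against 156 and 108 CPM (log2 fold change -0.72 ± 0.25, edgeR adjusted p = 0.766), while Cd40, Sirpa, and Vsir overlapped.

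The ER chaperones and heat shock proteins, which fold new proteins, had 9 of 16 genes lower in both tolerized kidneys, 1 higher, and a median of -0.34. Hspa5, the ER chaperone BiP, stood at 868 and 1109 CPM in rejecting and 488 and 668 CPM in tolerized members (log2 fold change -0.78 ± 0.26, edgeR adjusted p = 0.699). Of 18 dissociation and immediate early genes, which tissue digestion can induce, 6 were lower and 1 was higher, with a median of -0.41, and Fos and Junb overlapped. Of 23 Toll-like receptor and inflammasome genes, 8 were lower and 2 higher. Cd14, the lipopolysaccharide coreceptor, overlapped between the groups, while Pycard, the inflammasome adaptor, stood at 402 and 396 CPM against 301 and 330 CPM. Fcgr1, which encodes the Fc receptor CD64, stood at 319 and 345 CPM in rejecting and 232 and 165 CPM in tolerized members (log2 fold change -0.72 ± 0.24, adjusted p = 0.732). C3, the central complement component, stood at 682 and 367 CPM against 341 and 209.6 CPM.

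**Figure D4:**
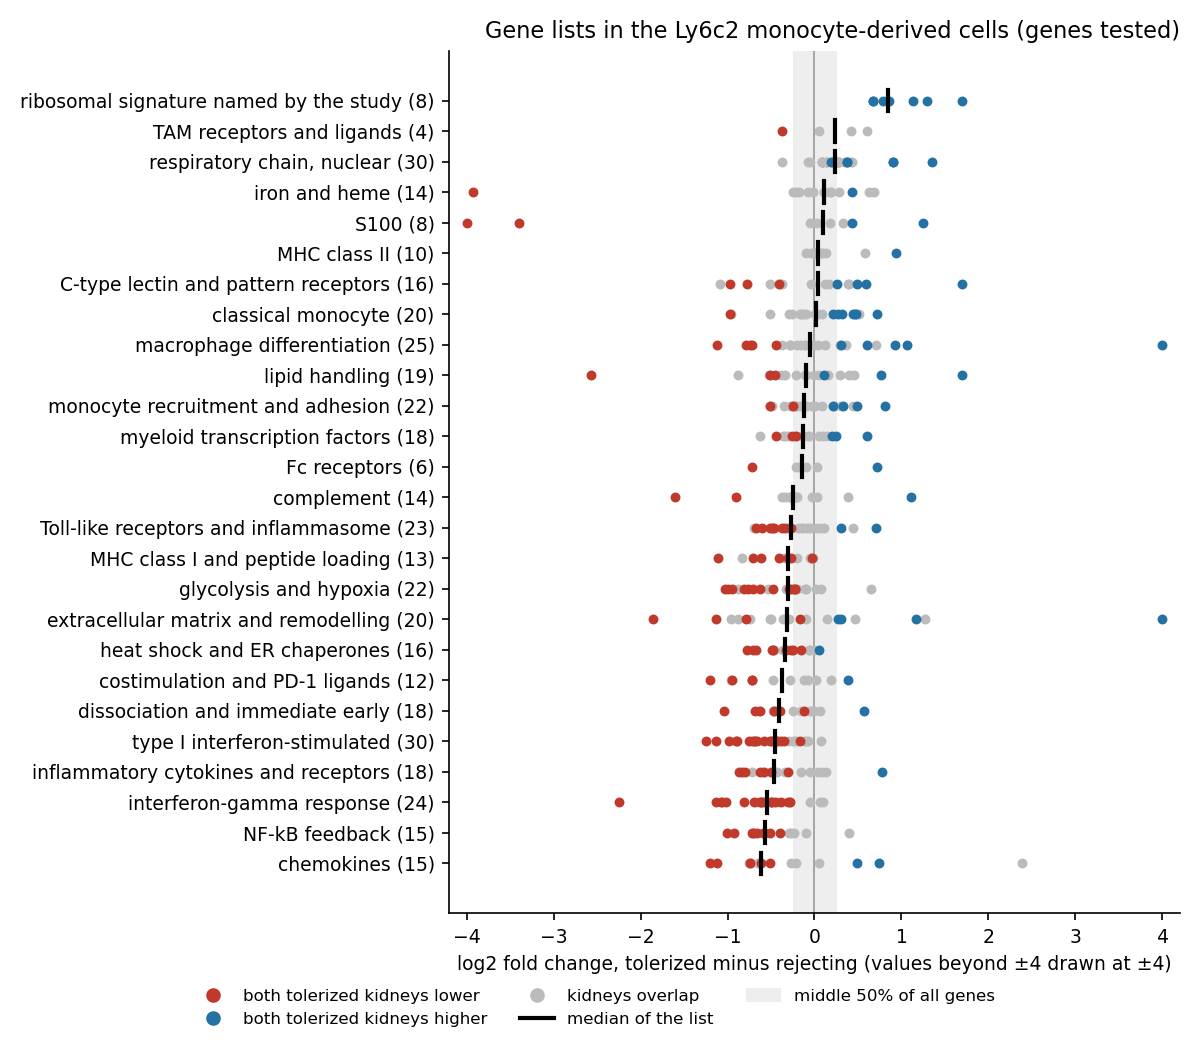
Log2 fold change of each tested gene of 26 lists, 1 row per list with its number of genes tested, ordered by the median (black bar). Red points are genes lower in both tolerized kidneys than in both rejecting kidneys, blue points the reverse, and the gray band is the middle 50% of all genes. The interferon, NF-κB, and chemokine lists lie at the low end with medians from -0.61 to -0.45, and the ribosomal list at the high end with 0.85.

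Genes at higher levels in tolerized members were led by ribosomal proteins. The 8 ribosomal genes that the study names as a signature were chosen there on these samples, so their direction is not independent evidence. All 8 were higher in both tolerized kidneys, beside 17.4% of all genes, with a median log2 fold change of 0.85, and none passed the FDR in edgeR. Rpl41, the shortest of the large-subunit proteins, stood at 1378 and 1608 CPM in rejecting and 3820 and 3511 CPM in tolerized members (log2 fold change 1.30 ± 0.22, adjusted p = 0.230). Rps28 stood at 293 and 644 CPM against 1519 and 1509 CPM (log2 fold change 1.69 ± 0.35, adjusted p = 0.324). Fau, which encodes a ubiquitin-like fusion of a small-subunit protein, stood at 3524 and 3673 CPM against 5696 and 5814 CPM. DESeq2 called Rpl38, Rpl41, and Rps28 among these genes. In edgeR the same 3 passed with thinned cells (adjusted p = 0.0447, 0.0074, and 0.0025), and Rps28 passed with the replicate block (adjusted p = 0.0326). Members of untransplanted kidneys held Rpl41 at 5243 and 6857 and Rps28 at 3634 and 4123 raw CPM, above every graft. These counts were made with another gene list, and its part in the difference from the grafts was not tested. Tolerized libraries were also deeper. The part of depth in this difference was not tested beyond thinning each cell to 2000 UMIs, which also changed the members and left a median of 0.83. Nuclear genes of the respiratory chain had a median of 0.24, with 6 of 30 higher and 0 lower in both tolerized kidneys. Without rejecting kidney 2 that median was -0.12, and without rejecting kidney 1 it was 0.59.

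Of 8 S100 genes, which encode calcium-binding proteins, 2 were higher and 2 lower in both tolerized kidneys. S100a4, a calcium-binding protein of motile cells, stood at 601 and 1222 CPM in rejecting and 1861 and 2458 CPM in tolerized members (log2 fold change 1.24 ± 0.34, edgeR adjusted p = 0.606, and 0.0243 with thinned cells). S100a6, S100a10, and S100a11 overlapped between the groups. S100a8, the partner of S100a9, stood at 185 and 486 CPM against 7.47 and 86.3 CPM, and without the granule-positive cells its log2 fold change was 1.71 in place of -3.40. Of 20 classical monocyte genes, 7 were higher and 1 was lower in both tolerized kidneys, with a median of 0.02, and this list includes genes of the membership rule. Ccr2 stood at 814 and 890 CPM in rejecting and 941 and 1043 CPM in tolerized members (log2 fold change 0.22 ± 0.22, adjusted p = 1), so the groups did not overlap, and the difference was about as large as its standard error. Plac8 and Ms4a6c overlapped. Among 22 recruitment and adhesion genes, 4 were higher and 2 lower, near the 17.4% and below the 17.6% of all genes, and Itgb2, the β2 integrin, stood at 237 and 235 CPM against 242 and 434 CPM. Cx3cr1, the fractalkine receptor, was chosen after its values were seen and stood at 73.4 and 53.7 CPM against 111.4 and 111.0 CPM.

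The members varied in how many macrophage genes they held. C1q-positive members, with at least 2 of C1qa, C1qb, and C1qc after thinning to 2000 UMIs, were 48 of 223 cells (21.5%) of rejecting kidney 1 and 64 of 297 (21.5%) of rejecting kidney 2. In tolerized kidney 1 they were 63 of 271 (23.2%), and in tolerized kidney 2 they were 4 of 40 (10%). The same test on T cells, which lack C1q, gave 9.13%, 1.26%, 0.668%, and 0 of 777 cells, which allows a share of up to 0.386%, at median depths of 3206 to 5765 UMIs against 5742 to 9427 in members. The mean share was 21.5% ± 0.02 in rejecting and 16.6% ± 9.37 in tolerized kidneys (SD, n = 2 each), and an exact two-sided permutation test gave p = 1. Without thinning the shares were 37.3%, 25.4%, 27.3%, and 14.3%. Under a stricter rule of 3 genes and 5 UMIs they were 12.1%, 12.8%, 6.47%, and 3.57%, so that both tolerized kidneys then lay below both rejecting kidneys (exact permutation p = 0.333, the smallest possible). Tolerized kidney 2 also had the lowest C1qa, at 173 CPM against 1279 to 1964 CPM in the other grafts, and the lowest Apoe, at 1250.2 CPM against 4160 to 9171 CPM. Of 25 macrophage differentiation genes, 5 were higher and 5 lower in both tolerized kidneys, with a median of -0.05.

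Axl, the receptor tyrosine kinase that the study follows, was a minor gene of these cells. It stood at 58.8 and 51.7 CPM in rejecting and 84.4 and 56.7 CPM in tolerized members, with overlap between the groups (log2 fold change 0.42 ± 0.27, edgeR adjusted p = 1). Over 17 alternatives the log2 fold change ran from -0.20 to 0.60, and 14 had the sign of the main fit. A UMI was seen in 52, 55, 87, and 6 members, and 1 cell held 43.5% of the UMIs in tolerized kidney 2. In C1q-high macrophages of the same kidneys the level was 183 to 229 raw CPM, and in non-classical monocytes 78.1 to 149 raw CPM. Mertk, a related receptor for dying cells, stood at 6.41 and 11.5 CPM against 16.2 and 7.40 CPM. Their ligands Gas6 and Pros1 stood below 30 CPM in every kidney, and Cebpb, a transcription factor of monocyte differentiation, overlapped at 908 and 1876 CPM against 721 and 1092 CPM. Of 18 myeloid transcription factors, 3 were higher and 3 lower, and Spi1, Klf2, and Zeb2 had log2 fold changes of -0.07, 0.20, and 0.10. Among the remaining lists, iron and heme, lipid handling, Fc receptors, complement, C-type lectins, TAM receptors, and extracellular matrix each had at most 4 genes lower and at most 4 higher in both tolerized kidneys.

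Whether the tolerized difference was particular to these cells was tested as an interaction within the same kidneys, against C1q-high macrophages (3396 cells, with all 3 C1q genes and at least 10 UMIs of them) and against non-classical monocytes (1487 cells, with at least 2 of the 4 patrolling genes). Against C1q-high macrophages, 1 of 10489 genes passed the FDR (0.00953%), and it was S100a9, with 2.92% at an unadjusted p under 0.05. Against non-classical monocytes, 10 of 9505 passed (0.105%), 2 with a positive difference (0.021%) and 8 with a negative one (0.0842%), and 3.4% had an unadjusted p under 0.05. Without the cells carrying other cells' markers edgeR called 0, with 262 at an unadjusted p under 0.05. No interferon, NF-κB, chemokine, or ribosomal gene of the lists passed in either fit. The median difference over both interferon lists was -0.13 log2 against macrophages (55 genes) and 0.01 against non-classical monocytes (54 genes), beside medians over all genes of 0.005 and -0.0005. For the 8 ribosomal genes it was -0.07 and -0.01. It was farther from the medians over all genes for chemokines (-0.36 and 0.03), NF-κB feedback (-0.24 and -0.07), and glycolysis and hypoxia (-0.21 and -0.21). These list medians were not tested.

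The raw CPM of the 3 cell types stood side by side for the leading genes. Gbp2 was 1107 and 1092 raw CPM in rejecting and 594 and 415 raw CPM in tolerized members, 769 and 964 against 486 and 328 in non-classical monocytes, and 420.5 and 445 against 289 and 322 in C1q-high macrophages. In each cell type both tolerized kidneys were lower. The interaction for Gbp2 was -0.64 ± 0.20 against macrophages and -0.04 ± 0.19 against non-classical monocytes, with an edgeR adjusted p of 1 in both. Rps28 was 292 and 658 against 1505 and 1443 raw CPM in members, 248 and 547 against 1385 and 1141 in non-classical monocytes, and 210.4 and 491 against 1278 and 1082 in macrophages. Members had the highest Isg15 and Cxcl10 of the 3 cell types in every kidney, which is a description of cells chosen by their counts and was not tested. Cxcl9 went the other way. With thinned cells it was found in more C1q-high macrophages (70% to 89.4%) than members (32.5% to 55.2%) in every graft.

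**Figure D5:**
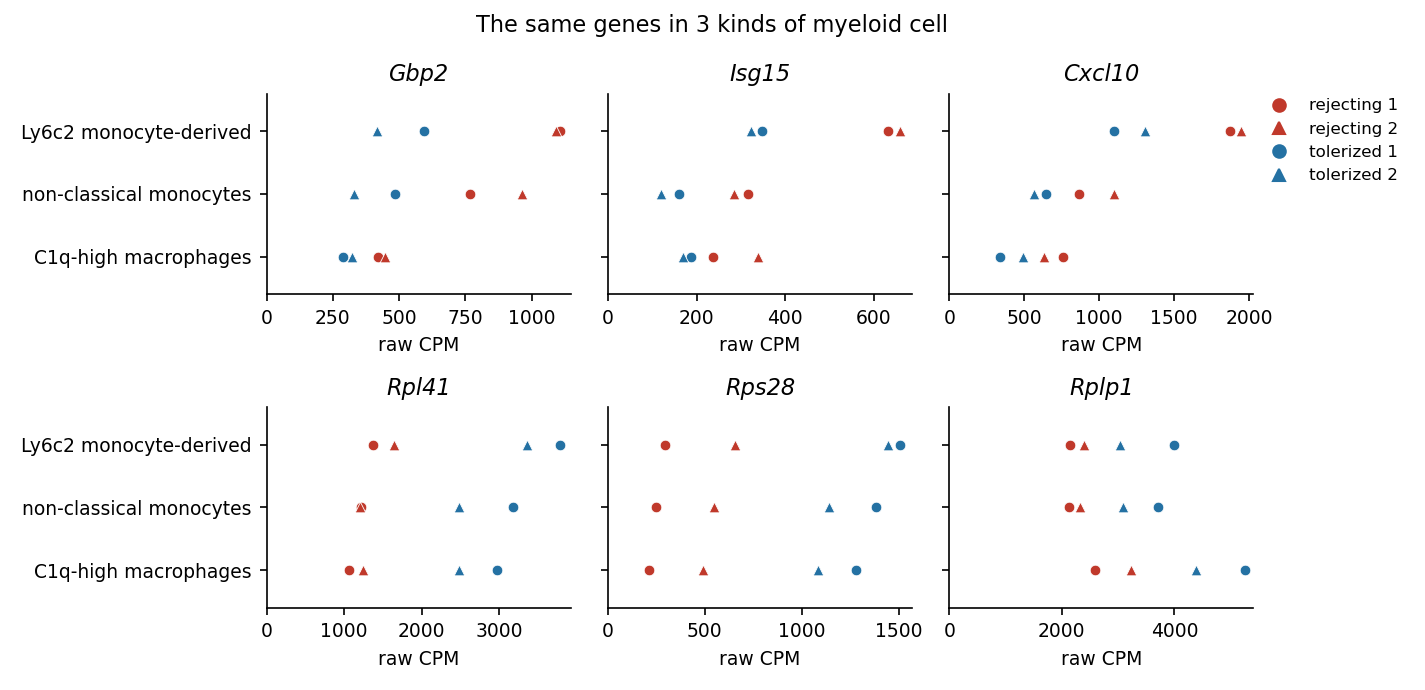
Raw CPM of 6 genes in the summed cells of 3 kinds of myeloid cell, with 1 symbol per kidney and axes from 0. In every panel and every cell type the tolerized kidneys do not overlap the rejecting kidneys, lower for Gbp2, Isg15, and Cxcl10 and higher for Rpl41, Rps28, and Rplp1.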

How the data were processed

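Single cells of 6 mouse kidneys were studied. The authors deposited 1 matrix of raw UMI counts per kidney, made with Cell Ranger (version 3.0.1 in the headers of the transplanted kidneys) on mm10, without normalization. The deposited counts were whole numbers. A barcode was kept from 500 UMIs and 250 genes upward if mitochondrial UMIs made up no more than 50%. Members were then found by the rule given above. The members and gene lists were chosen with earlier results of these data known.

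UMI counts were summed per kidney and cell type, and low genes were removed by filterByExpr. The quasi-likelihood fit of edgeR 4.0.16 (R 4.3.3), with TMM factors, was made on the 4 transplanted kidneys without covariates. The interaction fits held kidney and cell type as terms. DESeq2 1.42.0 was an alternative. Numbers and shares were compared by exact two-sided permutation tests (scipy 1.17.1). Doublets, scored with Scrublet through scanpy 1.11.5 and called up to 0.8% per 1000 barcodes, stayed in except in an alternative. The fits were tested on simulated data.

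Named genes are the 12 largest log2 fold changes per direction past an FDR of 0.05 without overlap (the 5 smallest p where fewer passed), the genes of the rule, the genes the study names, list genes past the FDR, the 4 list members of highest CPM, and the 5 largest interaction terms. Alternatives were DESeq2 or its size factors, no filter, a replicate block, doublets left out, limits of 1000 UMIs or 20% mitochondrial UMIs, a stricter rule (3 genes and 5 UMIs), C1q-positive cells left out, thinning to 2000 UMIs, and leaving out each kidney. Leaving out granule-positive cells, cells with other cells' markers, or the highest cell of each gene was chosen after seeing the data. The fits with thinned cells applied the rule again to the thinned counts, so their members differed from those of the main fit. Library totals ranged from 34874702 to 96803926 UMIs. Coordinates are from GENCODE M21 and RefSeq on GRCm38. Some genes that the rule names are not reported here.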

Additional observations from a re-analysis of the deposited data

Results flagged for a closer look

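The tolerized difference in the monocyte-derived cells differed from that in another myeloid cell of the same kidneys for the genes given here, by the interaction term of edgeR's quasi-likelihood fit (log2 ± SE, adjusted over all genes tested). S100a9 differed from C1q-high macrophages by -9.55 ± 0.47 (adjusted p = 1.2e-06) and from non-classical monocytes by -13.28 ± 0.42 (adjusted p = 1.7e-09). From non-classical monocytes, S100a8 differed by -8.14 ± 1.23 and Lcn2, a neutrophil granule protein, by -3.86 ± 0.58. In the members these genes rest on the few granule-positive cells of the rejecting kidneys, and non-classical monocytes of the tolerized kidneys held S100a9 at 138 and 40.5 raw CPM.

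The hemoglobin genes Hbb-bt, Hba-a1, Hba-a2, and Hbb-bs differed by -9.21, -9.30, -7.89, and -7.56. In rejecting kidney 1, 1 member held 854 of 903 UMIs of Hbb-bs. On the other side of the comparison, non-classical monocytes of tolerized kidney 1 held 3633 UMIs of erythroid genes, or 799.7 raw CPM, against at most 108 raw CPM in those of the other grafts. Gzma, a granzyme of T and NK cells, differed by -5.05, with 125, 13, 2, and 1 UMIs in the members of the 4 grafts.

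Klk1, a kallikrein of distal tubules, differed by 3.14 ± 0.46, and Dcstamp, a fusion receptor of myeloid cells, by 4.65 ± 0.78, with 2, 3, 42, and 11 UMIs. Leaving out the cells with other cells' markers left 0 of these differences from non-classical monocytes past the FDR. No group had 4 samples, so no sample could be tested as standing apart.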

How the results depend on the processing

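The share of kept barcodes kept its direction in all 12 alternatives. The cell number and the C1q share kept theirs except without tolerized kidney 2. There they differed by 4.5 cells and 1.71 percentage points, and the causes were not tested. Without 1 kidney the ranges were -239.5 to 4.5 cells and -11.5 to 1.71 points. With 2 kidneys per group these tests cannot pass. For the main comparison (4 calls), DESeq2 gave 18, no filter 189, the replicate block 31, the stricter rule 2, thinning 16, leaving out granule-positive cells 0, other cells' markers 0, and the highest cell 1. The 4 calls were shared by DESeq2, no filter, and the block, and none by the stricter rule or thinning. Leaving out 1 kidney gave 29 (tolerized kidney 1) to 102 (tolerized kidney 2). The labels do not tie replicate numbers to the study's 2 experiments, and same-numbered kidneys did not deviate together (r = 0.0231 over 8727 genes), so the block stayed an alternative. The interaction with macrophages (1 call) gave 45 with no filter, 3 without doublets, 0 under the stricter rule, 2 without C1q-positive cells, 0 without granule-positive cells, and 12 (rejecting kidney 2) to 141 (tolerized kidney 1) without 1 kidney. That with non-classical monocytes (10 calls) gave 1 with DESeq2, 56 with no filter, 3 without doublets, 5 at 20% mitochondrial UMIs, 6 without granule-positive cells, 0 without other cells' markers, and 5 (rejecting kidney 2) to 92 (tolerized kidney 1) without 1 kidney. In such fits the lone kidney was assumed to vary like the others. Lyz1 turned to -0.75 without C1q-positive cells, Jund to 0.088 under the stricter rule, and S100a8 to 2.04 under it, 1.71 without granule-positive cells, and 1.70 without other cells' markers. Other reported genes also changed sign in some alternatives, among them Axl (-0.20 to 0.60) and C1qa (-2.93 to 0.57). The 42 cells of tolerized kidney 2 limit all levels there.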
